A study of Homo sapiens with 9 samples.

Results

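The 82-kDa ChAT line and the 69-kDa ChAT line were compared on 6 of the 9 arrays of the study, 3 arrays for each line. Both lines are described as IMR-32 cells, an established human neuroblastoma line, which stably express either the 69-kDa or the 82-kDa form of choline acetyltransferase (ChAT). The other 3 arrays are labelled wild-type IMR-32 and entered only the shared estimate of the spread. The comparison asks which transcripts differ between cells that carry one form and cells that carry the other. Arrays were chosen by their titles, which give the line and a replicate number, and the lines were set against each other as groups and as differences of the same-numbered arrays. The labels do not state the promoter of the introduced gene, whether a line is a single clone, or any treatment. Form and line go together in this design and cannot be told apart.

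ChAT joins choline and acetyl-CoA to make the neurotransmitter acetylcholine. Its common form works mainly in the cytoplasm of cholinergic nerve endings, while the longer form found in primates has an amino-terminal extension and can enter the nucleus. Sympathetic neuroblastoma cells arise from the neural crest and can express both cholinergic and noradrenergic genes.

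Each array gave 1 intensity for each of 22283 probe sets, the groups of short probes that read one transcript, of which 22215 were tested after 68 control probe sets were set aside. Intensities ran from 14.9 to 21486 on a linear scale with array medians of 133.7 to 142.6, and 55.9 was the lowest lower quartile of any array and serves below as a mark of dim signal. The number of arrays, 3 a line, limits the precision, and an exact permutation test of 3 against 3 cannot give a p below 0.1. The measured markers of a noradrenergic neuroblastoma were above the mark of dim signal on the 6 arrays except TH, and DBH was close to it. Bright were the oncogene MYCN at 1035 to 6118 over its probe sets, the transcription factor PHOX2A at 761 to 1572 and the granule protein CHGA at 799 to 990. The transcription factor GATA3 was at 385 to 4785 over its probe sets, and the factor HAND2 was dimmer at 80.2 to 130.6. TH, which makes the first step of catecholamine synthesis, was at 40.4 to 55.8 and so below that mark on every array, and DBH, which makes noradrenaline, was at 67.0 to 101.6, against 59.7 to 71.1 on the arrays labelled wild type. Both of these defining enzymes were thus at or near the mark of dim signal. The arrays labelled wild type held MYCN at only 38.0 to 144.7, which goes against their label, and a fit without them is given beside the main count. Epithelial markers were dim, with 8 of 16 genes under 55.9 on all 6 arrays and sums of 1108 to 1194 in the 69-kDa line and 1081 to 1250 in the 82-kDa line. Of 7 haematopoietic markers 2 were under that mark on all 6 arrays, with sums of 455 to 599 and 485 to 649, and of 11 Schwann and glial markers 3 were, with sums of 2384 to 2530 and 2171 to 2495. Mesenchymal markers summed to 15921 to 22596 and 17738 to 19850, with 4 of 29 under the mark.

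Replicate 1 stood apart from replicates 2 and 3 in both lines. Log2 values of replicates 2 and 3 correlated at 0.998 within the 69-kDa line and 0.997 within the 82-kDa line, whereas replicate 1 correlated with replicates 2 and 3 of its own line at 0.975 to 0.980. The median absolute log2 difference between the lines was 0.15 in replicate 1 and 0.087 in each of replicates 2 and 3. The ratio of 3' to 5' signal of the actin gene ACTB was 0.703 and 0.709 in replicate 1 and 0.863 to 0.907 in the other 4 arrays, while that of GAPDH was 0.950 to 1.02 on all 6. The part of this ratio in the results below was not tested. No label ties a replicate number to a day or batch. Values are given below in order of replicate number for each line, and most results are given in each replicate number as well as over all 3.

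CHAT itself was higher in the 82-kDa line on every array. Its probe set read 256, 175 and 177 in the 69-kDa line and 1066, 423 and 1067 in the 82-kDa line, against 148, 125 and 114 on the arrays labelled wild type. The 2 lines did not overlap, although replicate 2 of the 82-kDa line was well below its companions. The differences in the same-numbered arrays were 2.06, 1.27 and 2.59 on the log2 scale, and the mean of 1.97 (SE 0.34, n = 3 a line) is a 3.93-fold higher level. By limma this difference had an unadjusted p of 0.00032 and an adjusted p of 0.70 over all probe sets, and 0.28 with the replicate number as a block, so it did not pass the threshold of 0.05. Without replicate 2 of the 82-kDa line it was 2.42 with an adjusted p of 0.045. Leaving out any other single array it was 1.75 to 2.15 and not called (smallest adjusted p = 0.17 by limma). Which transcripts of CHAT the probes read, introduced or native, was not determined, because no positions of the probes were used.

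Over all probe sets, 0 were called higher and 0 lower in the 82-kDa line by limma (0% of 22215 each, smallest adjusted p = 0.26). At an unadjusted p under 0.05, 324 were higher (1.46%) and 409 lower (1.84%). With the replicate block the calls were again 0 each way (smallest adjusted p = 0.061, for PTPRK), with 1465 probe sets (6.59%) at an unadjusted p under 0.05. In a fit of only the 6 arrays 0 were called as well, with 652 at an unadjusted p under 0.05. In replicates 2 and 3 alone 218 were called higher (0.981%) and 236 lower (1.06%). Leaving out replicate 1 of the 82-kDa line gave 26 higher and 10 lower, and leaving out replicate 1 of the 69-kDa line 4 and 4.

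The line differences in replicate 1 were little related to those in replicates 2 and 3. Over all probe sets the difference in replicate 1 correlated with those in replicates 2 and 3 at -0.070 and -0.092, and the differences in replicates 2 and 3 correlated with each other at 0.66; no arrays are shared between these differences, and they are given as descriptions. In a limma fit with a mean for each line in replicate 1 and in replicates 2 and 3, the line difference was higher in replicate 1 at 474 probe sets (2.13%) and lower at 663 (2.98%). Replicate 1 has 1 array a line in this fit and is assumed to vary as replicates 2 and 3 do, which lay closer to each other than to it. Its own spread was not measured, so the p-values of this contrast hold only under that assumption. Leaving out any one of the 4 arrays of replicates 2 and 3 brought these counts to between 76 and 104 higher and between 63 and 118 lower.

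**Figure D1:**
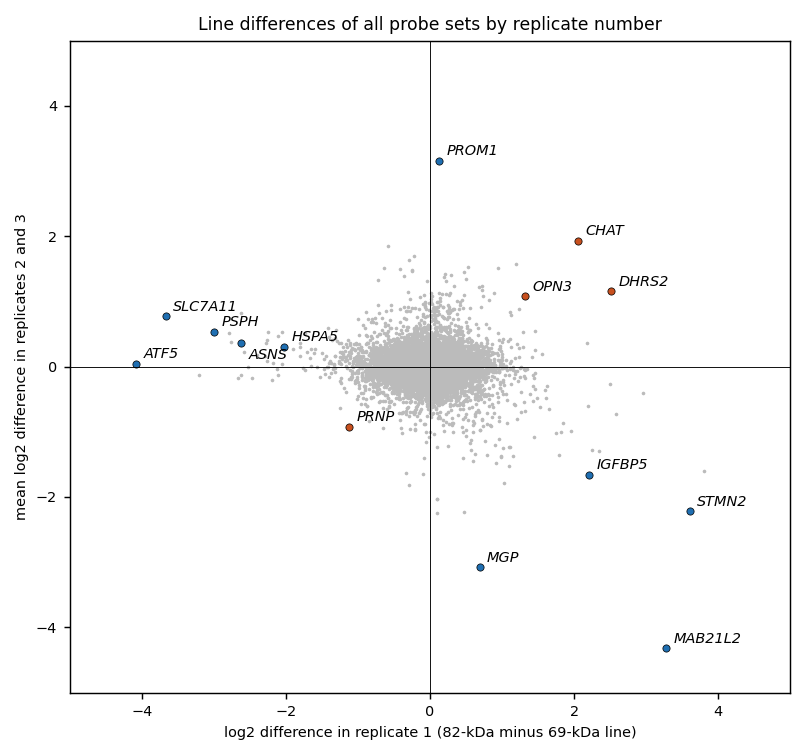
Each grey point is 1 of 22215 probe sets, with the log2 difference between the lines (82-kDa minus 69-kDa) in replicate 1 on the horizontal axis and the mean of the differences in replicates 2 and 3 on the vertical axis. CHAT, OPN3, DHRS2 and PRNP (orange) lie on one side of 0 on both axes, MAB21L2, STMN2 and IGFBP5 lie to the right and below 0, ATF5, SLC7A11, PSPH, ASNS and HSPA5 lie far to the left at vertical values from about 0 for ATF5 to 0.77 for SLC7A11, and PROM1 and MGP are displaced mainly along the vertical axis.

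Genes that differed the same way in all 3 replicate numbers were few once a size was asked. At any size 3406 probe sets (15.3%) were higher and 3002 (13.5%) lower in all 3, about as many as were higher in replicate 1 and lower in both others (3107, 14%) or the reverse (3346, 15.1%). With each difference at least 1.5-fold, 10 probe sets (0.045%) were higher and 5 (0.0225%) lower, against 50 (0.225%) and 18 (0.081%) in which replicate 1 went the other way from replicates 2 and 3. At least 2-fold each time, 2 were higher, CHAT and DHRS2 (0.009%), and 0 lower, while 13 (0.0585%) and 0 had replicate 1 on the other side. The genes named next are the 12 highest and 12 lowest by the smallest of their 3 differences, so those differences are a description. None of the 24 passed limma over all 9 arrays (adjusted p from 0.26 to 1). Of the 24 genes 13 were read by no other probe set. The other 11 had 15 further probe sets, of which 11 gave the same direction in all 3 numbers and 0 did so at 1.5-fold or more each time, so the sizes below are those of single probe sets.

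Among the genes so named, the largest mean difference after that of CHAT was in DHRS2, a short-chain dehydrogenase. DHRS2 read 115, 95.2 and 113 in the 69-kDa line and 653, 219 and 243 in the 82-kDa line. The lines did not overlap, and replicate 1 had the largest difference, 2.51 against 1.20 and 1.10 on the log2 scale. Its brighter probe set read 213, 249 and 252 against 961, 334 and 309.7, with differences of 2.17, 0.42 and 0.30, and so was under 1.5-fold in replicates 2 and 3. OPN3, a light-sensing type of receptor expressed outside the eye, read 111, 104 and 129 against 277, 238 and 253. This was the gene with the smallest unadjusted p in the whole comparison (1.7e-05), with an adjusted p of 0.26 by limma and 0.090 with the block, and a mean difference of 1.16 (SE 0.14). No other probe set read OPN3, and its own, with the suffix _x_at, did not enter the fit without _x_at and _s_at probe sets. TENT5A, a poly(A) polymerase, read 104, 114 and 114 against 224, 204 and 204. CTNNA2, the neuronal alpha-catenin that links cadherins to actin, read 104, 84.5 and 85.6 against 153, 164 and 154. In both genes the spread within each line was small next to the gap between the lines.

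Other genes were higher in the 82-kDa line within each replicate number while their level also moved with the number. ITPRID2 read 194, 322 and 363 in the 69-kDa line and 320, 802 and 805 in the 82-kDa line, so that replicate 1 of the 82-kDa line lay below replicate 2 of the 69-kDa line. SFRP1, a secreted antagonist of Wnt signals, read 227, 388 and 404 against 331, 683 and 649, and again the lines overlapped across numbers; its other probe sets differed by 0.44 and 0.01 in replicate 1. DDAH1, which breaks down methylated arginines, read 476, 570 and 583 against 702, 825 and 873, without overlap. MEX3D, an RNA-binding protein, had nearly equal differences of 0.64, 0.64 and 0.65 on the log2 scale, while its dimmer probe set differed by 0.05, -0.12 and 0.19.

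NUCKS1, a chromatin-associated nuclear protein, read 1155, 967 and 1177 against 1900, 1806 and 3209. SNRPE, a core protein of spliceosomal particles, read 144, 92.6 and 114 against 241, 148 and 324 on its dimmer probe set. In both genes replicate 3 of the 82-kDa line was the highest array, and that array alone stood at least 2-fold above the other 5 at 10 probe sets. The brighter probe set of SNRPE gave differences of only 0.33, 0.09 and 0.05, and the dimmer one of NUCKS1 gave 0.06, -0.14 and 0.20. DENND1B, an exchange factor for Rab proteins, read 109.6, 91.5 and 63.9 against 238, 134 and 132. Of the 10 probe sets at least 1.5-fold higher each time, 2 were too dim to enter the named genes: PTPRK, a receptor phosphatase, at 33.8 to 49.4 against 74.1 to 91.1, and FUT9, a fucosyltransferase, at 24.9 to 33.2 against 45.1 to 78.3.

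**Figure D2:**
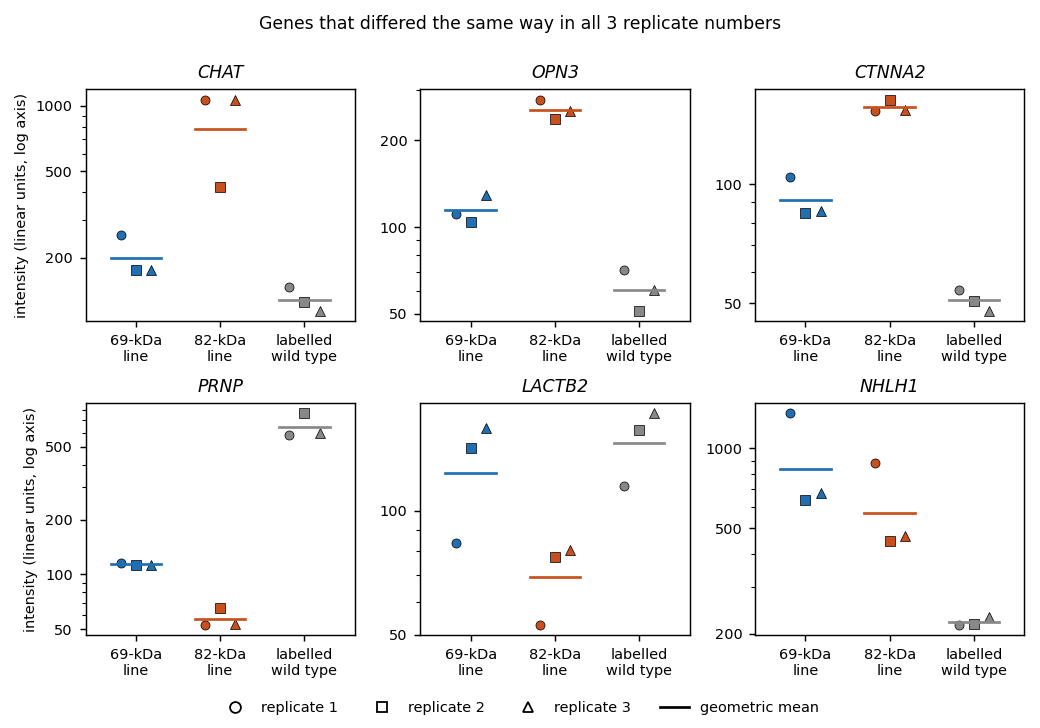
Intensities of CHAT, OPN3 and CTNNA2, which were higher in the 82-kDa line in all 3 replicate numbers, and of PRNP, LACTB2 and NHLH1, which were lower, on a log axis that differs by panel. Each point is 1 array, its shape gives the replicate number and the bar is the geometric mean of 3 arrays; OPN3 shows 2 tight groups of lines at 104 to 129 and 238 to 277, while in LACTB2 and NHLH1 replicate 1 is set off from replicates 2 and 3 in both lines.

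Among the genes that were lower in the 82-kDa line, PRNP, the prion protein gene, read 115, 113 and 113 in the 69-kDa line and 52.99, 65.8 and 53.6 in the 82-kDa line. Its mean difference was -0.99 (SE 0.13) with an adjusted p of 0.26 by limma and 0.12 with the block. The values in the 82-kDa line were near the mark of dim signal, so the fold is approximate. The brighter probe set of PRNP read 304, 229.8 and 211 against 259, 195 and 180.0, a mean difference of -0.23 with lines that overlapped. FAIM2, an inhibitor of Fas-driven cell death in neurons, read 166, 186 and 158 against 70.0, 118 and 104. LACTB2, a mitochondrial endoribonuclease, read 83.3, 142 and 159 against 52.9, 77.0 and 80.3. FAIM2 did not overlap between the lines on this probe set, but on its other one it differed by only -0.23, -0.07 and -0.08. LACTB2 did not overlap either, although its replicate 1 was lowest in each line.

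ANK2, an ankyrin that anchors membrane proteins to the cytoskeleton, read 404, 783 and 925 against 224, 470 and 487. Its differences of -0.85, -0.74 and -0.93 were alike, while replicate 1 was the lowest array of each line. NHLH1, a neuronal basic helix-loop-helix factor, went the other way with the replicate number and was highest in replicate 1, at 1354, 638 and 677 against 879, 446 and 468. GABRA5, a subunit of the GABA-A receptor, read 183, 285 and 344 against 129, 185 and 239. In these 3 genes the lines overlapped across numbers, and the same-numbered differences were close to each other. The other probe sets of ANK2 had mean differences of -0.06 and -0.43, and those of GABRA5 of -0.30 and -0.15 with mixed signs.

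PNMA8A had differences of -0.57, -0.61 and -0.63 and ARFGAP3, which acts on the Arf proteins of the Golgi, of -0.87, -0.56 and -0.66. RNF14, a ubiquitin ligase and coactivator of the androgen receptor, differed by -0.55, -0.55 and -0.51, and CDYL, a chromodomain corepressor, by -0.60, -0.51 and -0.80. The brighter probe set of RNF14 differed by only -0.23, -0.01 and -0.13, and the other probe sets of CDYL had mean differences of -0.25 and -0.50. CPEB1, which controls polyadenylation and translation of messenger RNAs, differed by -0.69, -0.50 and -0.56, and FAM3C, a secreted cytokine-like protein, by -0.56, -0.60 and -0.49. Just outside the 12 on either side were SIX3 with a smallest difference of 0.51 and SLC5A3 with -0.47.

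**Figure D3:**
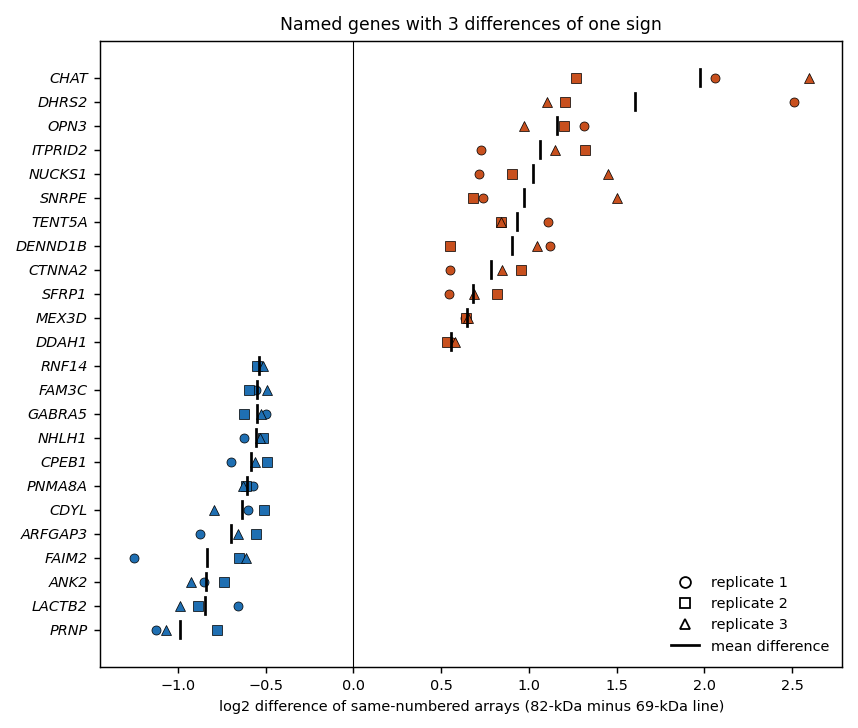
The 3 log2 differences of same-numbered arrays (82-kDa minus 69-kDa line) for the 12 highest and 12 lowest named genes, with a point shape for each replicate number and a bar at the mean. The differences lie close together for MEX3D, DDAH1 and RNF14 and are spread for CHAT, from 1.27 to 2.59, and for DHRS2, from 1.10 to 2.51.

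Stress-response genes formed a group that was higher in the 69-kDa line in replicate 1 and close to equal between the lines in replicates 2 and 3. When unfolded proteins build up in the endoplasmic reticulum (ER), cells raise chaperones through the factors ATF6 and XBP1. When ER stress, lack of amino acids or other stress leads to phosphorylation of the initiation factor eIF2, the factor ATF4 raises genes of amino acid synthesis and import and of tRNA charging, a programme called the integrated stress response. Of 86 measured genes in 4 lists of these programmes, 53 had a line difference that was lower in replicate 1 than in replicates 2 and 3, where 3.56% of all genes did and 2.47% were higher. Over all 86, called or not, replicate 1 of the 69-kDa line was the highest of the 6 arrays in 65 and replicate 1 of the 82-kDa line the lowest in 47, against 26.1% and 23.2% of all genes. Replicate 1 was also set against replicates 2 and 3 of its own group over the 86 genes. The median log2 difference was 0.73 in the 69-kDa line, -0.32 in the 82-kDa line and -0.01 in the arrays labelled wild type. These lists, like the others, were chosen with earlier results of these data known. Replicate 1 is 1 array a line, so genes that move together on it are not replicates, and the shares are descriptions.

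The promoters of these genes are printed because the members moved together. In RefSeq promoter windows of assembly GRCh38.p14, the 250 bases before each gene's start were searched on both strands for the ER stress response element, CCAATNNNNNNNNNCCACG, and for the C/EBP-ATF response element, TGATGNAA, neither of which contains the other. The first was found in 25 of 27305 genes (0.0916%) and in 7 of 17 of the called ER genes (41.2%), the second in 1061 genes (3.89%) and in 8 of 29 of the called genes of the other 3 lists (27.6%). The first was found in 0 of those 29 and the second in 1 of the 17 (5.88%). A match is a description of the letters and not of a bound site. The lists name genes of these programmes, and members that were not called were not counted apart. The shares therefore describe the lists and not these arrays. The 120 bases around a match are shown for 4 genes with the first element, 5' to 3' in the direction of the gene, with the match in capitals.
HSPA5, chr9:125241344-125241463, minus strand: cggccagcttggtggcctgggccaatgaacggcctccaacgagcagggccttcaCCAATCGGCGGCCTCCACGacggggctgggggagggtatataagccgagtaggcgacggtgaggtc
HSP90B1, chr12:103930166-103930285, plus strand: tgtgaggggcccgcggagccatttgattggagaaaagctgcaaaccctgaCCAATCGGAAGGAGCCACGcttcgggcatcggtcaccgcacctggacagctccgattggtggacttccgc
PDIA6, chr2:10812802-10812921, minus strand: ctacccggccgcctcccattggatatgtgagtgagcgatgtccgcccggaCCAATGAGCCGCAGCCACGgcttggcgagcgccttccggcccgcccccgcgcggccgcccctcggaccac
XBP1, chr22:28800570-28800689, minus strand: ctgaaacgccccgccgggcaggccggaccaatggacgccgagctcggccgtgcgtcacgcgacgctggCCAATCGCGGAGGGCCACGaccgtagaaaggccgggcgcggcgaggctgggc
Matches of the second element follow for 4 genes, those of GARS1 and CHAC1 being on the opposite strand.
ASNS, chr7:97872413-97872532, minus strand: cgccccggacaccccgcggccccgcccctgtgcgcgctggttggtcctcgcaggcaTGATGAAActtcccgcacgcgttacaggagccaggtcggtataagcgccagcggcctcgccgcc
GARS1, chr7:30594758-30594877, plus strand: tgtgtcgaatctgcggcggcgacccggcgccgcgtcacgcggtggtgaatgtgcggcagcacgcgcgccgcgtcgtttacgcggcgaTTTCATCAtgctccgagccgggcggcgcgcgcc
CEBPG, chr19:33373993-33374112, plus strand: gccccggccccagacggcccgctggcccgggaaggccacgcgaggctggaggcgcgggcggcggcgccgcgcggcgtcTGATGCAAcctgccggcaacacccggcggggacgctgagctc
CHAC1, chr15:40953221-40953340, plus strand: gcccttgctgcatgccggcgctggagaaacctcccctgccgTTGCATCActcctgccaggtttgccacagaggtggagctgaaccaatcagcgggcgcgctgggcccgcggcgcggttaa

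Of 25 measured ER chaperone and unfolded protein response genes, 18 were lower in the contrast of replicate 1 with replicates 2 and 3 and 1 was higher, CRYBG3, which stands on the list without being a known ER chaperone. The median line difference was -1.26 in replicate 1, 0.083 in replicate 2 and 0.067 in replicate 3. HSPA5, the main ER chaperone BiP, read 5344, 1843 and 1818 in the 69-kDa line and 1315, 2259 and 2267 in the 82-kDa line. Replicate 1 of the 69-kDa line was thus far above every other array, and replicate 1 of the 82-kDa line was the lowest. HERPUD1, which takes part in the disposal of misfolded ER proteins, read 4039, 841 and 836 against 658, 781 and 760. XBP1, whose RNA is spliced in this response, read 771, 399 and 360.1 against 219.6, 423 and 422. HSP90B1, the ER form of the HSP90 chaperones, read 1737, 584 and 566 against 497, 681 and 736. The contrast was -2.33 for HSPA5, -2.50 for HERPUD1, -1.97 for XBP1 and -2.11 for HSP90B1 (limma, adjusted p from 0.00044 to 0.0012). In each of the 4 genes the arrays other than replicate 1 lay within a narrow range.

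Among 22 regulators of the integrated stress response 11 were lower in this contrast and 2, TXNIP and EIF2AK2, higher, and the median line differences were -0.67, -0.02 and -0.02. ATF4, its central transcription factor, read 4629, 2600 and 2912 against 2271, 3309 and 3755. DDIT3, the pro-apoptotic factor CHOP, read 899.8, 213 and 189 against 162, 178 and 178. CEBPB read 1130.4, 150.3 and 145 against 183, 254 and 267. ATF5, another factor of this response, read 1298, 78.5 and 84.8 against 77.0, 85.7 and 82.9 on one probe set, with the same pattern on a brighter one and not on a dim one. It was the gene in which a single array stood farthest from the other 5, by 15.1-fold.

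Amino acid synthesis and import genes were lower in the contrast at 15 of 23 and higher at 0, with medians of -1.03, 0.19 and 0.16. ASNS, asparagine synthetase, read 4165, 917 and 999 against 679, 1203 and 1255. PSPH, the last enzyme of serine synthesis, read 379, 106 and 146 against 47.4, 180.4 and 181. SLC7A11, the cystine importer, read 363, 28.5 and 28.0 against 28.5, 48.2 and 48.2 on its probe set with the largest contrast, so that its signal was dim on every array but one. The same importer differed by -2.26, 0.65 and 0.17 on its brighter probe set. In PSPH and ASNS the 82-kDa line was lowest in replicate 1, and in replicates 2 and 3 it stood above the 69-kDa line, by 0.76 on the log2 scale for PSPH in replicate 2. Cytosolic tRNA synthetases were lower at 9 of 16 and higher at 0, with medians of -0.57, 0.06 and 0.07; GARS1, the glycyl-tRNA synthetase, read 4837, 2219 and 2336 against 1519.8, 2422 and 2554.

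**Figure D4:**
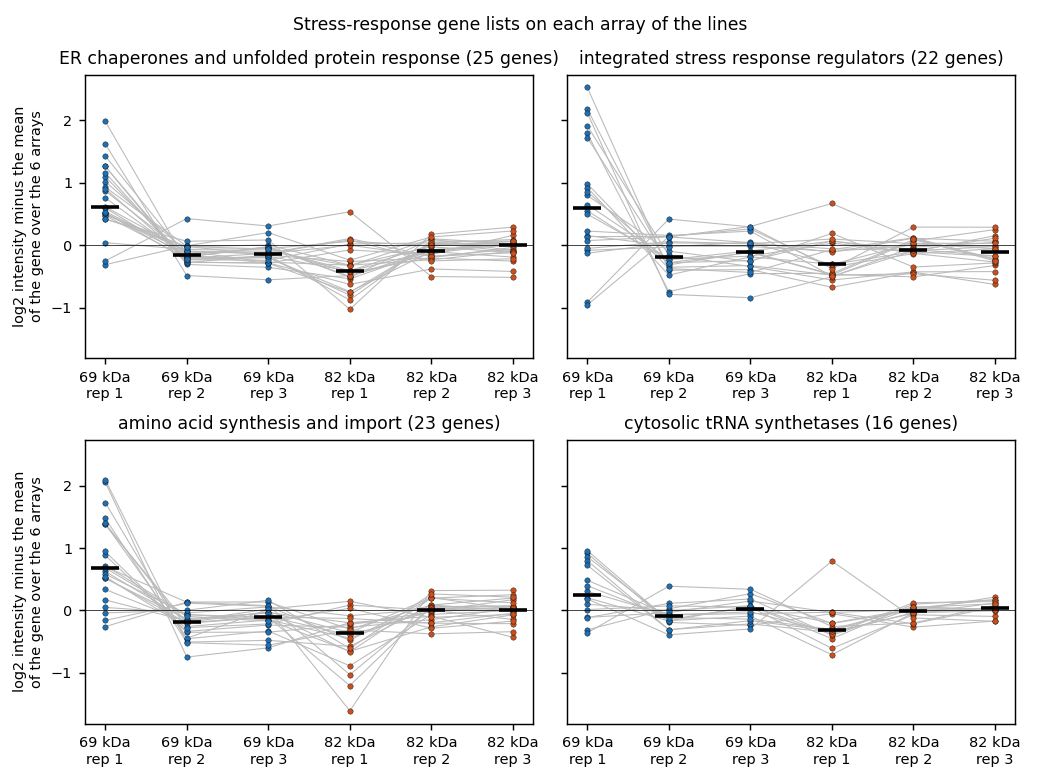
Log2 intensity of each gene of 4 stress-response lists on the 6 arrays of the lines, less the gene's own mean over those arrays, with 1 probe set a gene (the brightest), thin lines joining the values of a gene and black bars at the median. The median of replicate 1 of the 69-kDa line lies above those of the other arrays in all 4 lists, that of replicate 1 of the 82-kDa line lies below, and replicates 2 and 3 of both lines lie close to 0.

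Stress genes outside these lists gave smaller shares. Of 18 metallothionein and oxidative stress genes 7 were lower in the contrast and 0 higher, among them HMOX1, which breaks down haem, at 511, 115 and 114 against 104, 131 and 124, and NQO1, a quinone reductase, at 1104, 250.5 and 245 against 192, 259 and 235. Of 33 hypoxia and glycolysis genes 6 were lower and 0 higher, beside 3.56% lower and 2.47% higher of all genes. Of 17 cytosolic heat shock genes 1 was lower, a share near that of all genes.

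A second set of genes changed sides between the replicate numbers, with the 82-kDa line higher in replicate 1 and the 69-kDa line higher in replicates 2 and 3. MAB21L2, a developmental gene of eye and neural tissue, read 283, 1312 and 1301 in the 69-kDa line and 2743, 68.8 and 62.0 in the 82-kDa line. Its line difference was 3.28 in replicate 1 and -4.25 and -4.39 in replicates 2 and 3, a contrast of 7.60 (SE 0.15, adjusted p = 2.8e-05 by limma). STMN2, a stathmin that destabilises microtubules in growing axons, read 97.0, 498 and 817 against 1183, 137 and 137. IGFBP5, which binds insulin-like growth factors, read 541, 2050.4 and 2042 against 2495, 582 and 725. The contrasts were 5.82 (adjusted p = 0.0012) and 3.86 (0.0022). CHAT kept one direction on the same arrays, as did OPN3 and PRNP, which were named for doing so.

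Sympathoadrenal genes were among those that crossed. Of 26 measured, 5 were higher in replicate 1 than in replicates 2 and 3, beside 2.47% of all genes, and 1, NPY, was lower, near the 3.56% of all genes. HAND1, a factor of neural crest derivatives, read 343, 843 and 792 against 1323, 428 and 393. DDC, which makes dopamine from L-DOPA, read 188, 662 and 699 against 511, 322 and 325. GCH1, which makes the cofactor of tyrosine hydroxylase, read 291, 883 and 1067 against 574, 380 and 366. All 3 had the 82-kDa line higher in replicate 1 and lower in the others (contrasts of 2.94, 2.51 and 2.36, largest adjusted p = 0.0024 by limma). ISL1, a LIM-homeodomain factor, differed by 1.18 in replicate 1 and by -0.04 and -0.09 in the others. TH passed as well, but at dim signal.

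**Figure D5:**
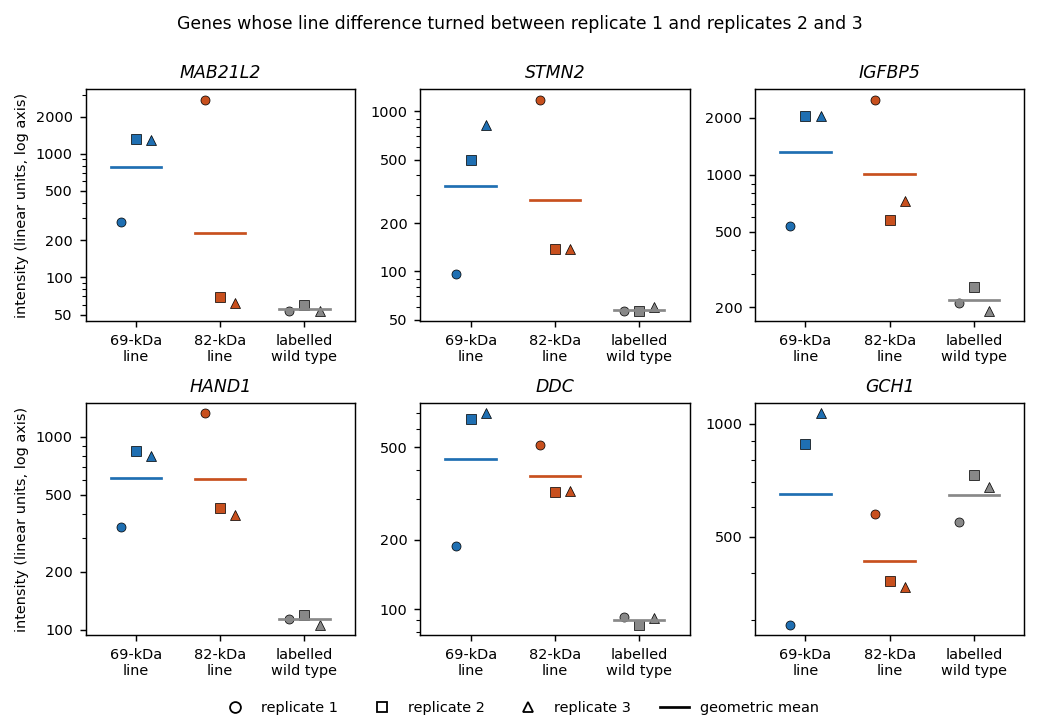
Intensities of MAB21L2, STMN2, IGFBP5, HAND1, DDC and GCH1 on a log axis that differs by panel, with 1 point an array, the shape giving the replicate number and the bar the geometric mean of 3 arrays. In every panel replicate 1 lies below replicates 2 and 3 in the 69-kDa line and above them in the 82-kDa line, so the line means hide a change of sides.

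Neuronal genes were higher in this contrast at 6 of 39 and lower at 2, where 2.47% and 3.56% of all genes were, so that the lower count is near the background. DCX, a microtubule protein of migrating neurons, read 500.1, 862 and 934 against 765, 500.1 and 484 and so crossed in the same way as STMN2. NEFH, the heavy neurofilament, crossed in the opposite way, at 269, 948 and 1196 against 165, 1806 and 1979. PRPH, another neuronal filament, was also lower in the contrast (-0.83, adjusted p = 0.042 by limma). Mesenchymal markers were higher at 4 of 29 and lower at 0, among them COL5A1, a collagen chain, and ANXA2, an annexin. Of 21 cholinergic genes 2 were higher, the nicotinic subunit CHRNA9 and the neurotrophin receptor NGFR, and 1, BCHE, was lower; counts of 1 or 2 genes like these differ little from what those shares give in lists of this size. BCHE, butyrylcholinesterase, read 217, 90.8 and 92.2 against 202, 161 and 195.

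Some genes differed between the lines mainly in replicates 2 and 3. The examples that follow were chosen after their values were seen. PROM1, the stem cell surface protein CD133, read 25.1, 27.5 and 27.4 in the 69-kDa line and 27.4, 242 and 249 in the 82-kDa line. TIMP3, an inhibitor of matrix proteases, read 369, 602 and 608 against 393, 119 and 135 on the probe set with the largest difference, and its other probe sets were lower in the 82-kDa line in replicates 2 and 3 too. MGP, a matrix protein that limits calcification, read 508, 1198 and 1572 against 819.7, 148 and 178. It also changed sides, with a difference of 0.69 in replicate 1. In replicates 2 and 3 alone the differences of these genes were 3.16, -2.25 and -3.08 (adjusted p = 3.8e-05, 0.0010 and 0.0011 by limma), and none passed over all arrays.

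No gene list had a member called between the lines over all 9 arrays, 0 of 655 list genes, where 0% of all genes were called; 26 were called in replicates 2 and 3, where 1.13% of all genes were called higher and 1.33% lower. Counts of one direction in all 3 replicate numbers are therefore given as descriptions, beside 14.9% higher and 14.3% lower of all 11963 genes. Of 38 G2 and mitosis genes 23 were higher in the 82-kDa line in all 3 and 0 lower, with medians of 0.25, 0.05 and 0.19. PTTG1, securin, had the smallest unadjusted p among them (0.0090) and read 2151, 2883 and 2641 against 3229, 3220.4 and 3562. CDC20, which activates the anaphase-promoting complex, read 246, 348 and 391 against 296, 708 and 883. Both genes had every same-numbered difference above 0, and CDC20 had its large differences in replicates 2 and 3. Of 41 G1/S and replication genes 13 were higher and 1 lower, and of 15 histone genes 8 were higher and 0 lower, although 6 of the 15 were under 55.9 on all 6 arrays.

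Lists with more members lower than higher in all 3 numbers included APP processing (9 lower and 3 higher of 32), immediate early genes (6 and 1 of 26), p53 targets (6 and 1 of 14), sterol and fatty acid synthesis (4 and 0 of 26) and the integrated stress response (8 and 0 of 22). Of all genes 14.3% were lower and 14.9% higher in all 3 numbers. The lower count of the sterol genes is near that 14.3%, and their medians were 0.29, -0.22 and -0.38. GADD45A, a stress-induced gene of the p53 list, read 1399, 1332 and 1399 against 847, 1123 and 1178, with no overlap between the lines (mean difference -0.41, adjusted p = 1.0 by limma). KLF10, an early-response factor, read 288, 407 and 495 against 218, 259 and 288. LRP8, a receptor for reelin and apolipoprotein E, read 469, 613 and 612 against 347, 385 and 491. DLK1, a Notch-like protein of immature neuroblasts, read 82.2, 92.1 and 72.5 against 60.8 on all 3 arrays, close to the mark of dim signal.

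The member of each other list with the smallest p had no call either. HSPB1, a small heat shock protein, differed by -0.62, PSMB2, a proteasome subunit, by 0.64, ORC1, of the origin recognition complex, by 0.51, CASP6, an executioner caspase, by 0.49, and HMGB3, a chromatin protein, by 0.45. HK1, the hexokinase of brain, differed by -0.34, SPARC, a matrix protein, by 0.31, CANX, the ER chaperone calnexin, by -0.31, NES, nestin, by -0.29 and IFI44, an interferon-induced gene, by 0.28. ODC1, which makes polyamines and lies on the same chromosome arm as MYCN, differed by -0.26, MAP1B by -0.21 and NDUFV1, of respiratory complex I, by -0.19. H1-2, a linker histone, differed by 0.32 and MT1X, a metallothionein, by 0.20. POLR1B, of RNA polymerase I, differed by -0.21, PMVK, of sterol synthesis, by -0.23, PTPRC, the leukocyte antigen CD45, by -0.14 and JUP, plakoglobin, by -0.14. CTH and CARS1, at -0.61 and -0.51, belong to the stress genes whose difference lay in replicate 1. All of these had an adjusted p of 1.0 by limma.

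Genes of amyloid precursor protein handling were not called. GGA3, which sorts the secretase BACE1 to lysosomes, read 609, 479 and 435 in the 69-kDa line and 496, 404 and 397 in the 82-kDa line on its brighter probe set. The difference was -0.22 (SE 0.14, adjusted p = 1.0 by limma), lower in 3 of 3 numbers, but 0.098 on its dimmer probe set. BACE1, which makes the first cut toward amyloid beta, read 170.3, 176 and 184 against 204.5, 170 and 148, with overlapping lines. APP differed by -0.068, -0.21 and -0.35 on its 3 probe sets and SATB1, a chromatin organiser, by 0.13, each with an adjusted p of 1.0.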

How the data were processed

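Per the submitters' processing notes the authors made the values with RMA, which subtracts background, puts arrays on a common distribution and combines the probes of a probe set; no version is named. What the authors deposited is an intensity for each probe set and array, on a linear scale. The step back from the log2 values that RMA usually gives is not described, and RMA can understate folds of dim genes. Groups and replicate numbers came from the sample titles, and the design text describes biological replicates. No 2 arrays held identical values (0 pairs).

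Intensities were taken to log2 and tested with limma 3.58.1 in R 4.3.3 (3 group means over 9 arrays, eBayes, two-sided), with Benjamini-Hochberg adjustment over 22215 probe sets and a threshold of 0.05. A second fit with replicate classes tested the line difference in replicate 1 minus that in replicates 2 and 3. On simulated data the first fit recovered 72 of 100 probe sets changed by 1 (log2) and 95 of 100 changed by 2. With the replicate block these were 85 and 97, and in the second fit 8 and 69 of 100. The simulated shift of replicate 1 was the same in every group, and the noise had the spread left after the replicate block. On the arrays the line difference itself changed between replicate 1 and the others, so these shares do not carry over to them. The share recovered on the arrays themselves was not tested. There CHAT differed by 1.97 and was not called (adjusted p = 0.70 by limma). The platform annotation gave 19065 probe sets 1 symbol, 1043 several and 2107 none; those with several or none are not named. The Entrez identifiers of 19053 matched RefSeq (GRCh38.p14), which changed 0 symbols. Gene lists, 28 with 746 symbols of which 655 were measured, used the brightest probe set of each of 11963 genes.

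Named genes were CHAT, the 12 highest and 12 lowest by the smallest of 3 differences of one sign (brighter line at least 100), the list members called or with the smallest p, the 3 largest contrasts of replicate classes each way, and GGA3, BACE1, APP and SATB1. Members, lists and rules were chosen with earlier results of these data known. Same-numbered arrays deviated together from their group means (correlations of 0.37 to 0.57 in the 3 pairs of the lines and 0.28 to 0.57 in all 9 pairs), so the numbers were taken to pair the samples, from the titles and this check. Replicates 2 and 3 of the lines also correlated across numbers (0.41 and 0.48), so the check parts replicate 1 from the rest, and whether the numbers 2 and 3 match is not shown. Alternatives were scaling, a pseudocount of 16, filters on dim or shared probe sets, eBayes settings, array weights, subsets of arrays and the block.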

Additional observations from a re-analysis of the deposited data

Results flagged for a closer look

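The limma contrast of the line difference in replicate 1 with that in replicates 2 and 3 called 474 probe sets higher in replicate 1 and 663 lower. Replicate 1 is a single array in each line, assumed to vary as the others do, and leaving out any one array of replicates 2 and 3 brought the counts to 76 to 104 and 63 to 118. The 3 named genes with the largest negative contrasts, all on the side of the 69-kDa line in replicate 1, were SLC7A11, ATF5 and PSPH. The cystine importer SLC7A11 had -4.44 on the log2 scale on a probe set with 5 arrays below the mark of dim signal, and -2.67 on its brighter probe set. The stress-response factor ATF5 had -4.12, but -3.07 on its brighter probe set and 0.072 on a dim one. Size and rank are therefore approximate for SLC7A11 and ATF5. The serine synthesis enzyme PSPH had -3.53. The named genes with the largest positive contrasts were MAB21L2 (7.60), STMN2 (5.82) and IGFBP5 (3.86). In each of these 3 the lines changed sides, the 82-kDa line being higher in replicate 1 and lower in replicates 2 and 3.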

How the results depend on the processing

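The count of 0 called probe sets each way also held with the replicate block, with the 6 arrays alone (with and without the block), under both scalings, the pseudocount, the filters, eBayes with trend and robust settings, and the threshold of 0.01. It became 218 higher and 236 lower in replicates 2 and 3 alone. With array quality weights it became 803 and 901; these were computed gene by gene, chosen after seeing the data because the default weights did not converge. Leaving out each array gave 0 to 26 higher and 0 to 10 lower (26 and 10 without replicate 1 of the 82-kDa line, 4 and 4 without replicate 1 of the 69-kDa line, 1 and 0 without replicate 2 of the 82-kDa line). With the replicate block as well the range was 0 to 52 and 0 to 23 (52 and 23 without replicate 1 of the 82-kDa line, 2 and 1 without that of the 69-kDa line). The block changed no call of a named gene. List genes called went from 0 to 26 in replicates 2 and 3, to 75 with weights, and to between 0 and 2 with an array left out. Probe sets the same way in all 3 numbers went from 10 higher and 5 lower to 3406 and 3002 with no size asked and to 2 and 0 at 2-fold. Those lower went to 3 both with the pseudocount and with a mean of at least 100. The replicate contrast, 474 and 663, became 910 and 1063 under quantile normalization and 76 to 104 and 63 to 118 with an array of replicates 2 and 3 left out. Signs reversed for uncalled genes only: the dimmer GGA3 probe set (-0.011 in replicates 2 and 3, -0.040 without replicate 3 of the 69-kDa line, -0.19 without replicate 1 of the 82-kDa line), BACE1 (0.077 without replicate 3 of the 82-kDa line), APP on its probe set with the suffix _at (0.049 with weights, 0.068 and 0.25 without replicates 2 and 3 of the 69-kDa line, 0.41 without replicate 1 of the 82-kDa line) and SATB1 (-0.030 in replicates 2 and 3, -0.052 with weights, -0.082 without replicate 1 of the 69-kDa line). Over the 63 named results and their alternatives, 908 values of 982 kept direction and side of the threshold, 63 passed it newly and 11 reversed. With an array left out the dimmer GGA3 probe set ranged from -0.19 to 0.29 and the brighter one from -0.33 to -0.084. BACE1 ranged from -0.15 to 0.077 and SATB1 from -0.082 to 0.27. The APP probe set with the suffix _at ranged from -0.52 to 0.41, that with _x_at from -0.33 to -0.11 and that with _s_at from -0.72 to -0.12. With array weights the APP probe set with _x_at was called (-0.35, adjusted p = 0.013 by limma). The causes were not tested. Signal near background limits PRNP, DLK1, PTPRK, FUT9 and the dim arrays of SLC7A11 and PROM1.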
